A study of Mus musculus with 16 samples.

Results

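The Igf2bp family of RNA-binding proteins, the growth factors Igf1 and Igf2 and the non-coding RNA H19 were examined by RIP-chip, in which RNA that precipitates with a protein is measured on arrays. The cells were HL-1, an immortalised line of mouse atrial cardiomyocytes. The 6 genes were chosen by name, as every row of the deposited table whose symbol is, or whose comma list contains, Igf2bp1, Igf2bp2, Igf2bp3, Igf2, Igf1 or H19. They had 9 of the table's 35556 rows. The 4 groups were anti-Igf2bp2 precipitates with an siRNA against Airn, IgG precipitates with the Airn siRNA, anti-Igf2bp2 precipitates with a scrambled siRNA, and IgG precipitates with the scrambled siRNA. Each group had 4 biological replicates, 16 arrays in all, and every culture received its siRNA at 10 nM in medium with norepinephrine. Airn, a long non-coding RNA, overlaps the Igf2r gene in antisense direction. All values came from a single cell line, and the table held comparisons between groups but no value of a single array.

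Igf2bp1, Igf2bp2 and Igf2bp3 bind messenger and long non-coding RNAs through RNA-recognition motifs and KH domains, and act on the stability, transport and translation of their targets. The family was named for binding to leader sequences of Igf2 mRNA. Igf2bp1 and Igf2bp3 are mainly expressed in the embryo and in tumours, whereas Igf2bp2 stays expressed in adult tissues such as muscle. Igf2 encodes a fetal growth factor expressed from the paternal allele, and its neighbour H19 a non-coding RNA expressed from the maternal allele. Igf1 encodes the growth factor that mediates much of the action of growth hormone. Anti-Igf2bp2 precipitates recover RNAs bound by the protein, and IgG precipitates measure RNA that sticks without it.

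Both imprinted members host a microRNA, and the deposited table had a row that names each of these hairpin genes, for Mir675 one shared with H19. In RefSeq (GRCm38.p6), Mir675 lies within H19 and Mir483 lies within Igf2, all on the minus strand of chromosome 7. The mature forms are shown, 5′ to 3′, because both hairpins lie within members and are named in rows described below. Capitals mark the seed, bases 2 to 8. The 4 mature microRNAs had 4 different seeds.
mmu-miR-675-5p: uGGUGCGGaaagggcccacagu
mmu-miR-675-3p: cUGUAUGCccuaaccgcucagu
mmu-miR-483-5p: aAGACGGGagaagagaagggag
mmu-miR-483-3p: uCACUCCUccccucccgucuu
These sequences lie at chr7:142577112-142577133, chr7:142577078-142577099, chr7:142654968-142654989 and chr7:142654932-142654952, in the order shown.

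Each value below is a log2 difference, anti-Igf2bp2 minus IgG, so that a positive value means more signal in the Igf2bp2 precipitate. The header does not state the log base. Base 2 was taken as the usual base for these arrays, and folds and bounds on folds rest on it. Standard errors (SE) were recovered from each row's difference and p-value, and the 95% intervals rest on them. A row was called at an adjusted p under 0.05. Per the authors' deposited table, 1.05% of all rows were called with the Airn siRNA, 0.630% higher and 0.425% lower. With the scrambled siRNA, 37.3% of all rows were called there, 20.4% higher and 16.8% lower. The higher share of calls was 59.7% with the Airn siRNA and 54.9% with the scrambled siRNA. With each comparison centred on its median over all rows (-0.06 and -0.10) these shares became 80.2% and 68.8%, and on the median of rows with a single symbol 40.7% and 57.0%. Relative to either median, all 9 rows kept their sign in both comparisons.

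Of the 9 rows, 1 was called with the Airn siRNA, that of Igf2bp2, and 4 with the scrambled siRNA, those of Igf2bp2, Igf1 and H19 on the higher side and Igf2bp3 on the lower. The shares in the whole table were 1.05% and 37.3%. All 9 rows had the same sign with both siRNAs, as did 87.8% of the whole table. With the Airn siRNA 5 rows lay above 0 and 4 below, and the same counts held with the scrambled siRNA. The median over the 9 rows was 0.10 with the Airn siRNA and 0.20 with the scrambled siRNA.

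**Figure D1:**
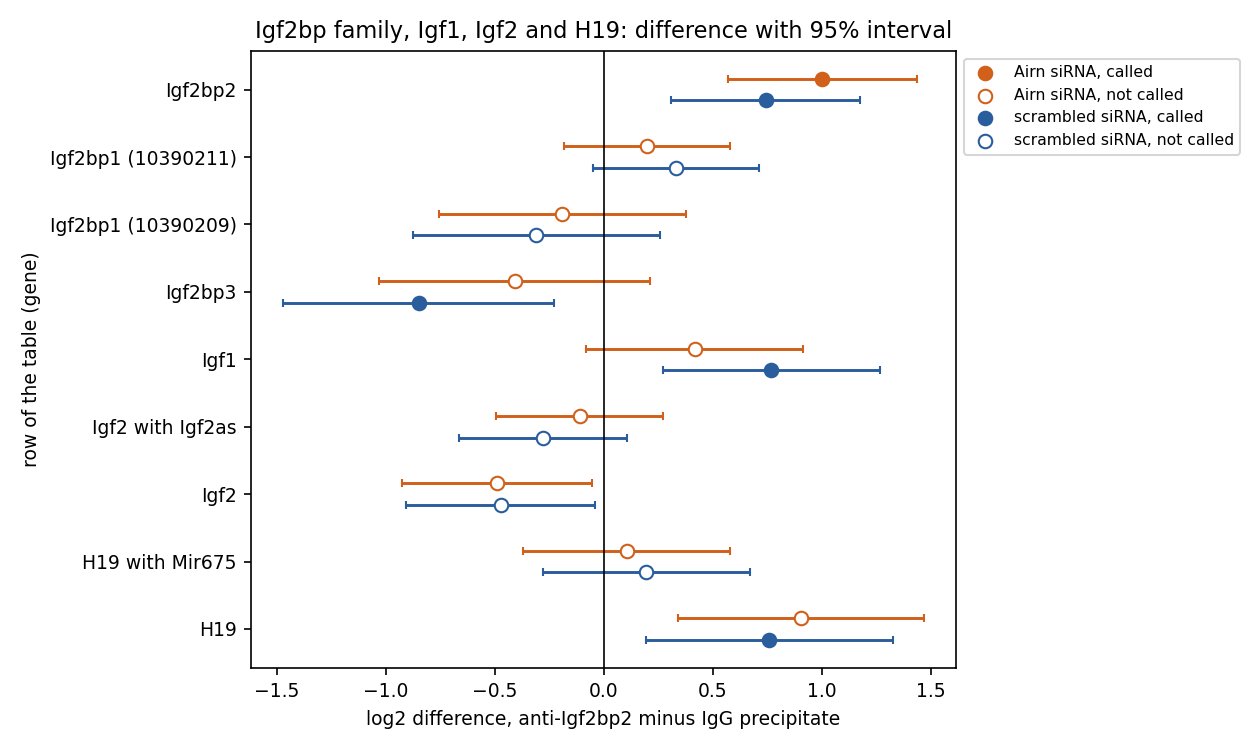
Log2 difference, anti-Igf2bp2 minus IgG (horizontal axis) for the 9 rows of the 6 genes, with the Airn siRNA above and the scrambled siRNA below in each pair. Points are the authors' deposited differences, bars the 95% intervals from recovered SEs, and filled points rows called at an adjusted p under 0.05. Igf2bp2 is filled in both comparisons, at 1.00 and 0.74.

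The mRNA of Igf2bp2, the precipitated protein itself, was higher in its own precipitates whichever siRNA was used. Igf2bp2 was given in the authors' deposited table as 1.00 (adjusted p = 0.0414) after Airn siRNA and as 0.74 (adjusted p = 0.0175) after scrambled siRNA. These values correspond to 2.00-fold with the Airn siRNA (95% interval of the log2 difference 0.57 to 1.44) and 1.67-fold with the scrambled siRNA (0.31 to 1.18). The SE of 0.20 was smaller than that of 78.3% of rows. Igf2bp2 lay above 97.8% of all rows with the Airn siRNA and above 84.5% with the scrambled siRNA, so that its place in the table was higher with the Airn siRNA. The difference between the siRNAs was itself 0.26 ± 0.29 (SE, 95% interval -0.35 to 0.87), within the error of the comparison. The call with the Airn siRNA was lost when p-values were adjusted over rows with a single symbol (adjusted p = 0.0520) or when the comparison was centred on their median (adjusted p = 0.0502). The 7 settings tried for it gave adjusted p from 0.027 to 0.052.

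Igf2bp1, whose chicken orthologue localises β-actin mRNA, had 2 rows of opposite sign. Row 10390211 of the authors' deposited table gave 0.20 (adjusted p = 0.409) after Airn siRNA and 0.33 (adjusted p = 0.142) after scrambled siRNA. Row 10390209 of the authors' deposited table gave -0.19 (adjusted p = 0.589) after Airn siRNA and -0.31 (adjusted p = 0.341) after scrambled siRNA. Neither row was called in either comparison, so the data give no direction for this gene. The intervals of row 10390211 were -0.18 to 0.58 with the Airn siRNA and -0.05 to 0.71 with the scrambled siRNA. Those of row 10390209 were -0.76 to 0.37 with the Airn siRNA and -0.88 to 0.26 with the scrambled siRNA.

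Igf2bp3, the oncofetal paralogue, was lower in the Igf2bp2 precipitates with the scrambled siRNA. Its values in the authors' deposited table were -0.41 (adjusted p = 0.303) after Airn siRNA and -0.85 (adjusted p = 0.0355, 1.80-fold lower) after scrambled siRNA. The 95% interval was -1.03 to 0.21 with the Airn siRNA and -1.47 to -0.23 with the scrambled siRNA. Its row was the least precise of the 9, with an SE of 0.29. Only 28.4% of all rows lay below it with the Airn siRNA, and 12.4% with the scrambled siRNA. When the comparison was centred on the median over all rows the scrambled-siRNA value became -0.75 and the call was lost (adjusted p = 0.0539). Igf2bp2 and Igf2bp3 thus stood on opposite sides of 0 with both siRNAs, with intervals that did not overlap (0.57 to 1.44 against -1.03 to 0.21 with the Airn siRNA, and 0.31 to 1.18 against -1.47 to -0.23 with the scrambled siRNA). The difference between these rows was not tested, because that would need the values of each array. Without signal levels, whether Igf2bp3 was expressed above background in these cells could not be examined either.

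**Figure D2:**
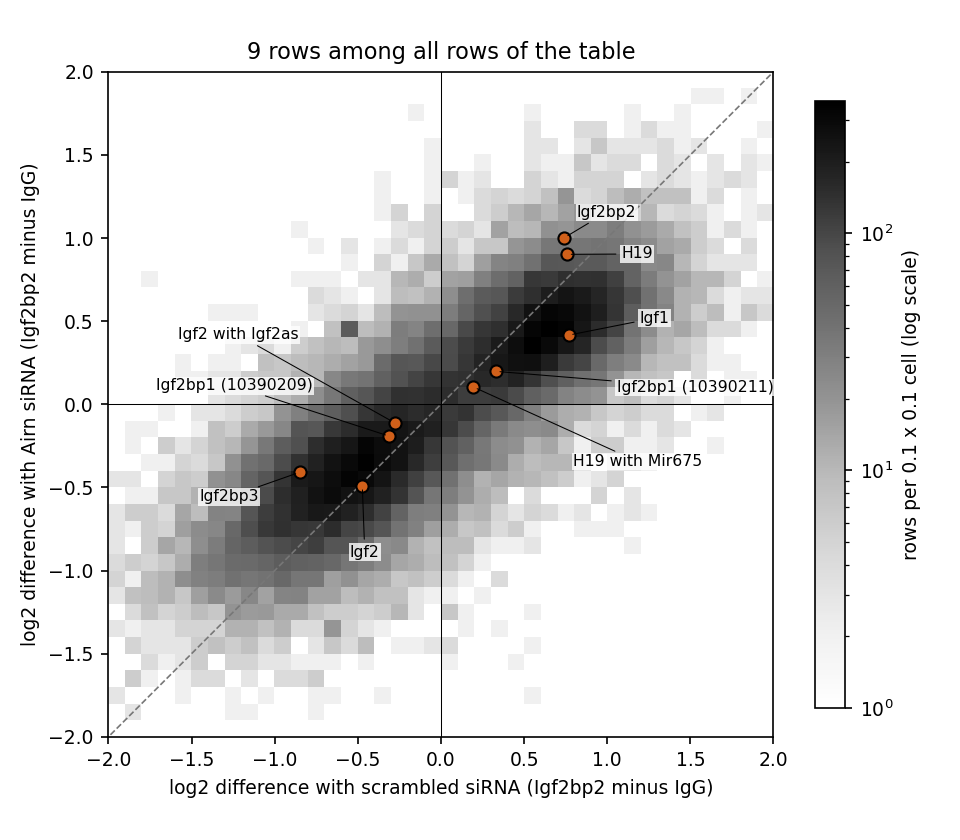
Log2 difference with the Airn siRNA (vertical axis) against that with the scrambled siRNA (horizontal axis). Grey cells count all rows of the table on a log scale, orange points are the 9 rows, the dashed line marks equal values, and rows beyond 2 in size on either axis are not drawn. Igf2bp2 and the row of H19 alone lie above the dashed line on the positive side. Igf1 and the row shared by H19 and Mir675 lie below it.

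Of the growth factors, Igf1 was called higher with the scrambled siRNA only, and Igf2 was called with neither siRNA. For Igf1 the authors' deposited table gave 0.42 (adjusted p = 0.209) after Airn siRNA and 0.77 (adjusted p = 0.0242, 1.70-fold) after scrambled siRNA. The intervals were -0.08 to 0.91 with the Airn siRNA and 0.27 to 1.27 with the scrambled siRNA. Igf1 lay above 75.3% of all rows with the Airn siRNA and above 85.5% with the scrambled siRNA. Unlike Igf2bp2 and the row of H19 alone, it was closer to 0 with the Airn siRNA, as were 6 of the 9 rows and 66.8% of the whole table.

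Igf2, the mRNA for which the family is named, lay below 0 in both of its rows. The row of Igf2 alone gave -0.49 (adjusted p = 0.122) after Airn siRNA and -0.47 (adjusted p = 0.0745) after scrambled siRNA, per the authors' deposited table. Its intervals excluded 0 in both comparisons (-0.92 to -0.06 with the Airn siRNA and -0.91 to -0.04 with the scrambled siRNA), while the adjustment over the whole table left it uncalled. A second row of the authors' deposited table, shared with the antisense transcript Igf2as, gave -0.11 (adjusted p = 0.649) after Airn siRNA and -0.28 (adjusted p = 0.211) after scrambled siRNA. The upper bounds of the 95% intervals were -0.06 and 0.27 with the Airn siRNA and -0.04 and 0.10 with the scrambled siRNA for the row of Igf2 alone and the shared row. On the scale as deposited, neither row's interval therefore reached above 0.27, and that bound is the one of the shared row. Centring on the median over all rows moved the shared row's value with the Airn siRNA from -0.11 to -0.05. The bound thus depends on where 0 is set. The table gives no signal levels, so whether Igf2 was expressed above background in these cells could not be examined.

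Rows of RNAs that overlap Igf2 also lay below 0. For Mir483 the authors' deposited table gave -0.63 (adjusted p = 0.120) after Airn siRNA and -1.17 (adjusted p = 0.00989) after scrambled siRNA. The row of Igf2as alone, now named Igf2os, gave -0.15 (adjusted p = 0.528) after Airn siRNA and -0.50 (adjusted p = 0.0442) after scrambled siRNA, again per the authors' deposited table. The neighbouring insulin gene Ins2 had -0.57 (adjusted p = 0.121) after Airn siRNA and -0.43 (adjusted p = 0.144) after scrambled siRNA, likewise per the authors' deposited table. Mir483 and Igf2as were thus called lower with the scrambled siRNA, in which Igf2 was not, and Ins2 was not called. Whether the Mir483 row reads the hairpin, the microRNA or the Igf2 transcript was not tested. As for Igf2, expression of Mir483, Igf2as and Ins2 above background could not be examined.

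H19 had 2 rows that differed in size. The row of H19 alone had 0.90 (adjusted p = 0.0735, 1.87-fold) after Airn siRNA and 0.76 (adjusted p = 0.0376, 1.69-fold) after scrambled siRNA, per the authors' deposited table. The row shared with Mir675 had 0.10 (adjusted p = 0.731) after Airn siRNA and 0.20 (adjusted p = 0.478) after scrambled siRNA, again per the authors' deposited table. The intervals of the H19 row were 0.34 to 1.47 with the Airn siRNA and 0.19 to 1.32 with the scrambled siRNA, both above 0. Those of the shared row were -0.37 to 0.58 with the Airn siRNA and -0.28 to 0.67 with the scrambled siRNA, and the rows' intervals overlapped in both comparisons. H19 lay above 96.7% of all rows with the Airn siRNA and above 85.1% with the scrambled siRNA. The call for H19 thus rests on 1 of its 2 rows, the less precise one (SE 0.27 against 0.22). Igf2 and H19, which are neighbours and are expressed from opposite alleles, stood on opposite sides of 0 in every row.

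The size that a difference needed to be called was larger with the Airn siRNA than with the scrambled siRNA, because fewer rows of the table passed. The largest called p in the authors' deposited table was 0.00053 with the Airn siRNA and 0.0186 with the scrambled siRNA. At its SE, Igf2bp2 would have been called from 0.88 with the Airn siRNA and from 0.54 with the scrambled siRNA. For H19 these sizes were 1.15 with the Airn siRNA and 0.70 with the scrambled siRNA. H19 was therefore called with the scrambled siRNA at 0.76 and not with the Airn siRNA at 0.90, although the second difference was larger. Igf1 would have needed 1.01 with the Airn siRNA and 0.62 with the scrambled siRNA, and Igf2bp3 1.26 with the Airn siRNA and 0.77 with the scrambled siRNA. Over the 9 rows, a call with the Airn siRNA needed between 0.77 and 1.26. A row that was called with the scrambled siRNA and not with the Airn siRNA was thus judged by unequal thresholds, and the change itself was tested next.

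**Figure D3:**
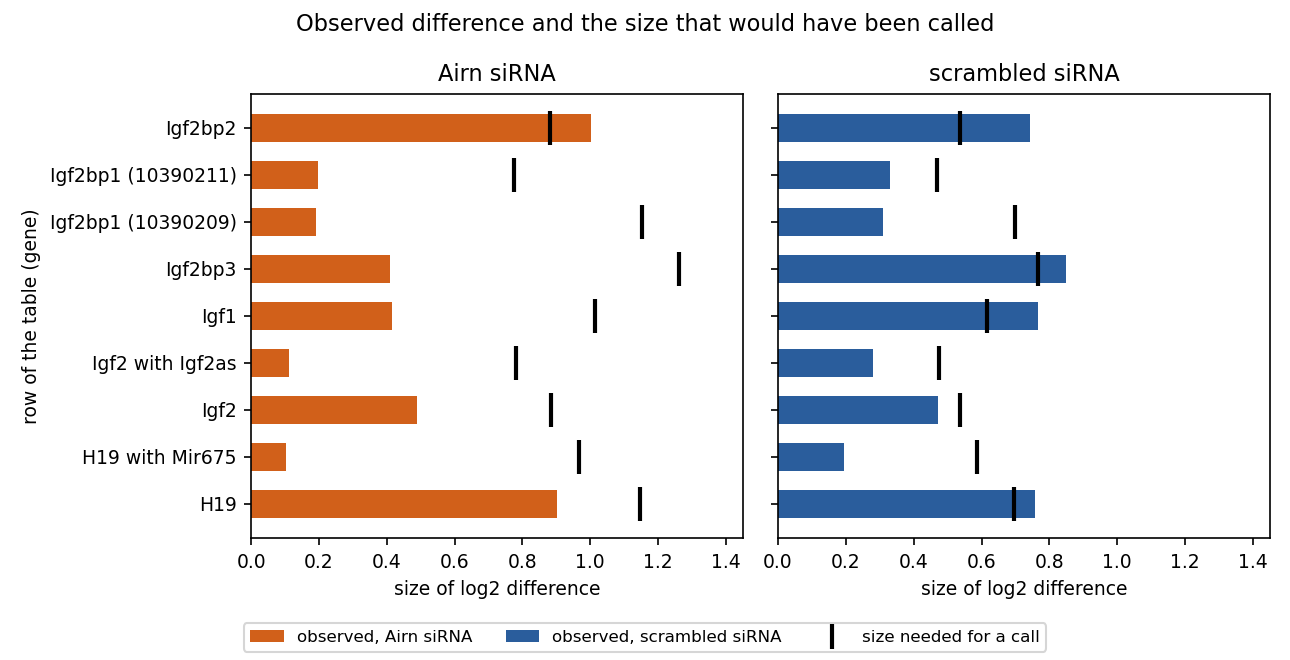
Size of the observed log2 difference (bars, without sign) and the size at which each row would have been called at its SE (black marks), with the Airn siRNA on the left and the scrambled siRNA on the right. With the Airn siRNA only the bar of Igf2bp2 passes its mark, while with the scrambled siRNA those of Igf2bp2, Igf2bp3, Igf1 and H19 do.

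The change of enrichment between the Airn and the scrambled siRNA addressed whether RNA recovered with Igf2bp2 differs after an siRNA against Airn. The table holds no levels, so how far Airn was silenced could not be checked, and the contrast compares 2 siRNAs. None of the 9 rows changed by the test on recovered SEs, with Benjamini-Hochberg adjustment over all rows (adjusted p from 0.998 to 0.999). That test called 0% of the table (0 of 35556 rows), none of the 9 rows had an unadjusted p under 0.05, and 1221 rows of the whole table did. The largest change was that of Igf2bp3, 0.44 ± 0.41 (SE, 95% interval -0.44 to 1.32). Igf1 changed by -0.35 ± 0.33 (-1.06 to 0.35). The row of H19 alone changed by 0.14 ± 0.38 (-0.65 to 0.94) and the row shared with Mir675 by -0.09 ± 0.32 (-0.76 to 0.58). The row of Igf2 alone changed by -0.02 ± 0.29 (-0.63 to 0.60) and the row shared with Igf2as by 0.17 ± 0.26 (-0.38 to 0.71). These 2 Igf2 intervals allow a change between 0.646-fold and 1.51-fold and between 0.771-fold and 1.64-fold. For Igf2bp2 the interval allows a change between 0.783-fold and 1.83-fold. As the only changed row of the table, Igf2bp2 would have needed a change of 2.14 on the log2 scale to be called, and Igf2bp3 one of 3.07. Changes of the size seen between these values were therefore not detectable by this test at this number of arrays. The comparison does not show that enrichment stayed the same.

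The mean of both comparisons uses all 16 arrays and takes their errors as independent. It called 58.2% of the table, 29.2% higher and 29.0% lower, and 5 of the 9 rows, so the members' share was close to that of the whole table. Igf2bp2 averaged 0.87 ± 0.14 (adjusted p = 0.00128) and the row of H19 alone 0.83 ± 0.19 (adjusted p = 0.00384), both higher in the test on recovered SEs. Igf1 averaged 0.59 ± 0.17 (adjusted p = 0.0094) and was also higher in that test. Igf2bp3 averaged -0.63 ± 0.21 (adjusted p = 0.0187) and the row of Igf2 alone -0.48 ± 0.14 (adjusted p = 0.0127), both lower in that test. In this order, from Igf2bp2 to Igf2bp3, the intervals of Igf2bp2 (0.57 to 1.18), H19 (0.43 to 1.23) and Igf1 (0.24 to 0.94) overlapped one another. Those of the row of Igf2 alone (-0.79 to -0.17) and Igf2bp3 (-1.07 to -0.19) overlapped as well. The rows called higher did not overlap those called lower. The row of H19 shared with Mir675 averaged 0.15 (interval -0.19 to 0.49) and was not called by the test on recovered SEs (adjusted p = 0.418). The row of Igf2 shared with Igf2as averaged -0.195 and was not called by that test either (adjusted p = 0.193). The Igf2bp1 rows averaged 0.26 (adjusted p = 0.0825) and -0.25 (adjusted p = 0.254) in the test on recovered SEs.

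The genes placed most like 3 of the members were sought by the distance between pairs of differences, over 2 comparisons only and among 15846 genes. Nearest to Igf2bp2 in the authors' deposited table were Zfp58, a zinc-finger protein (1.00 with the Airn siRNA and 0.73 with the scrambled siRNA), Mis12 of the kinetochore (0.98 and 0.76) and the Mdm2-binding protein Mtbp (1.03 and 0.72). Of these, Mis12 and Zfp58 were called in both comparisons and Mtbp in neither. Nearest to H19 were the vesicle fusion ATPase Nsf (0.90 and 0.76), the mitotic checkpoint kinase Bub1b (0.90 and 0.77) and Extl2 (0.90 and 0.77), in the same table and order of siRNAs. Nearest to Igf2bp3 were the GABA receptor subunit Gabre (-0.41 and -0.85), the semaphorin Sema4g (-0.41 and -0.85) and the homeobox gene Esx1 (-0.41 and -0.85), again in the authors' deposited table. Within a distance of 0.1 lay 41 genes for Igf2bp2, 101 for H19 and 234 for Igf2bp3, so that Igf2bp2 had the emptiest surroundings of the 3.

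Other genes of insulin-like growth factor signalling lay on both sides of 0. The list held 25 receptors, ligands, adaptors and binding proteins, each given by the row with the smallest SE. With 1 row per gene, 0.813% of all genes were called higher and 0.169% lower with the Airn siRNA, and 25.5% higher and 17.2% lower with the scrambled siRNA. With the Airn siRNA, 0 of the 25 were calls of the authors' deposited table, and 7 were higher and 1 lower with the scrambled siRNA. The count called higher was near the share over all genes, so it is not a result about this list. Whether the count called lower departs from its share was not tested. The median was 0.23 with the Airn siRNA and -0.09 with the scrambled siRNA, beside 0.01 and -0.05 over all genes. With the scrambled siRNA, genes called higher by the authors' deposited table included the binding proteins Igfbp4 (0.84) and Igfbp5 (0.63), the insulin receptor Insr (0.71) and the adaptor Shc1 (0.66). Igfbp3, the main circulating binding protein, was lower there (-0.57). The receptor of both growth factors, Igf1r, which was singled out after its values were seen, had 0.45 (adjusted p = 0.153) after Airn siRNA and 0.60 (adjusted p = 0.0391) after scrambled siRNA per the authors' deposited table. Igf2r, the clearance receptor of Igf2 and also singled out in this way, stood there at -0.10 with the Airn siRNA and at -0.09 with the scrambled siRNA and was not called.

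In the imprinted domain around Igf2 and H19, calls went both ways. Of 23 listed genes 20 had a row of their own, and the authors' deposited table called none of them with the Airn siRNA. With the scrambled siRNA it called 5 higher, namely Mrpl23 (1.43), Nap1l4 (0.83), Lsp1 (0.63), Cd81 (0.59) and, named after its value was seen, Kcnq1 (0.47). Lower were 3, namely Mir483 and Igf2as, given above, and the transcription factor Ascl2 (-0.67 in the authors' deposited table). These counts of 20 stand beside 25.5% higher and 17.2% lower over all genes, so neither is a result about the domain. Mrpl23 encodes a mitochondrial ribosomal protein and Nap1l4 a histone chaperone. Genes were matched by symbol only. Mrpl23 has 2 rows, and the row used, 10483786, has an identifier far from those of its listed neighbours. Which locus it reads was not tested. The other Mrpl23 row, 10559233, had 0.48 (adjusted p = 0.376) after Airn siRNA and 1.53 (adjusted p = 0.0154) after scrambled siRNA per the authors' deposited table. The median was 0.00 with the Airn siRNA and -0.17 with the scrambled siRNA.

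Among 14 oncofetal and let-7-linked genes, which are often expressed together with Igf2bp1 and Igf2bp3, none were called with the Airn siRNA. Calls of the authors' deposited table with the scrambled siRNA were 3 higher and 4 lower, where 25.5% of all genes were higher and 17.2% lower, and whether so short a list departs from these shares was not tested. The lower ones were the transcription factors Mycn (-1.06) and Plag1 (-0.52), the let-7 inhibitor Lin28b (-0.81) and the chromatin protein Hmga2 (-0.78). The higher ones of the authors' deposited table were the uridylyltransferase Zcchc11 (1.09), the microRNA-processing enzyme Dicer1 (0.99) and the transcription factor Plagl2 (0.59). The median was -0.21 with the Airn siRNA and -0.12 with the scrambled siRNA.

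Messages for proteins of Igf2bp particles and for other KH-domain proteins had more members on the higher side. This was not particular to these lists. Actb, named after its values were seen, had 0.565 with the Airn siRNA (adjusted p = 0.0901). With the scrambled siRNA it had 0.788 (adjusted p = 0.0128), both per the authors' deposited table. Cardiomyocyte and smooth muscle markers, given at the end, had positive medians, and fibroblast, endothelial and leukocyte markers negative ones. Without signal levels, the lists could not be compared with expressed genes only. Of 22 proteins reported in Igf2bp ribonucleoprotein particles 19 had a row of their own. The authors' deposited table called 0 of these with the Airn siRNA, and 15 higher and 0 lower with the scrambled siRNA. Over all genes, 0.813% were called higher and 0.169% lower with the Airn siRNA. With the scrambled siRNA these shares were 25.5% and 17.2%. The median was 0.53 with the Airn siRNA and 0.70 with the scrambled siRNA, against 0.01 and -0.05 over all genes. With the scrambled siRNA the authors' deposited table was highest for the nuclear-matrix protein Matr3 (1.05), the double-stranded RNA-binding protein Stau2 (0.95), Syncrip (0.94) and the fragile X paralogue Fxr2 (0.81). Ybx1, singled out after its values were seen, stood there at -0.003 with the Airn siRNA (adjusted p = 0.990) and at 0.45 with the scrambled siRNA (adjusted p = 0.0635).

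Of 31 other KH-domain proteins 28 had a row of their own, of which Fmr1 and Fxr2 are also in the list of particle proteins. The authors' deposited table called none with the Airn siRNA, and 20 higher and 1 lower with the scrambled siRNA. The shares over all genes were 0.813% higher and 0.169% lower with the Airn siRNA. They were 25.5% higher and 17.2% lower with the scrambled siRNA. The median was 0.47 with the Airn siRNA and 0.63 with the scrambled siRNA. With the scrambled siRNA the highest values of the authors' deposited table were those of Tdrkh (1.38), which acts in the piRNA pathway, the neuronal splicing factor Nova1 (1.05), Fubp3 (0.89) and the decay factor Khsrp (0.87). Khdrbs2 was lower there (-0.89). Set beside these lists, Igf2bp2 (0.74 with the scrambled siRNA) lay near their medians of 0.70 and 0.63. With the Airn siRNA its value of 1.00 was above the highest member of either list (0.75 and 0.84). The 95% interval of that value, 0.57 to 1.44, covered both of these. The change of Igf2bp2 between the siRNAs was 0.26 ± 0.29 (SE), within the error of the comparison. In the mean of both comparisons, 18 particle proteins and 23 KH-domain proteins were called higher and 0 and 2 lower, in a test that called 35.8% of all genes higher and 30.0% lower.

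**Figure D4:**
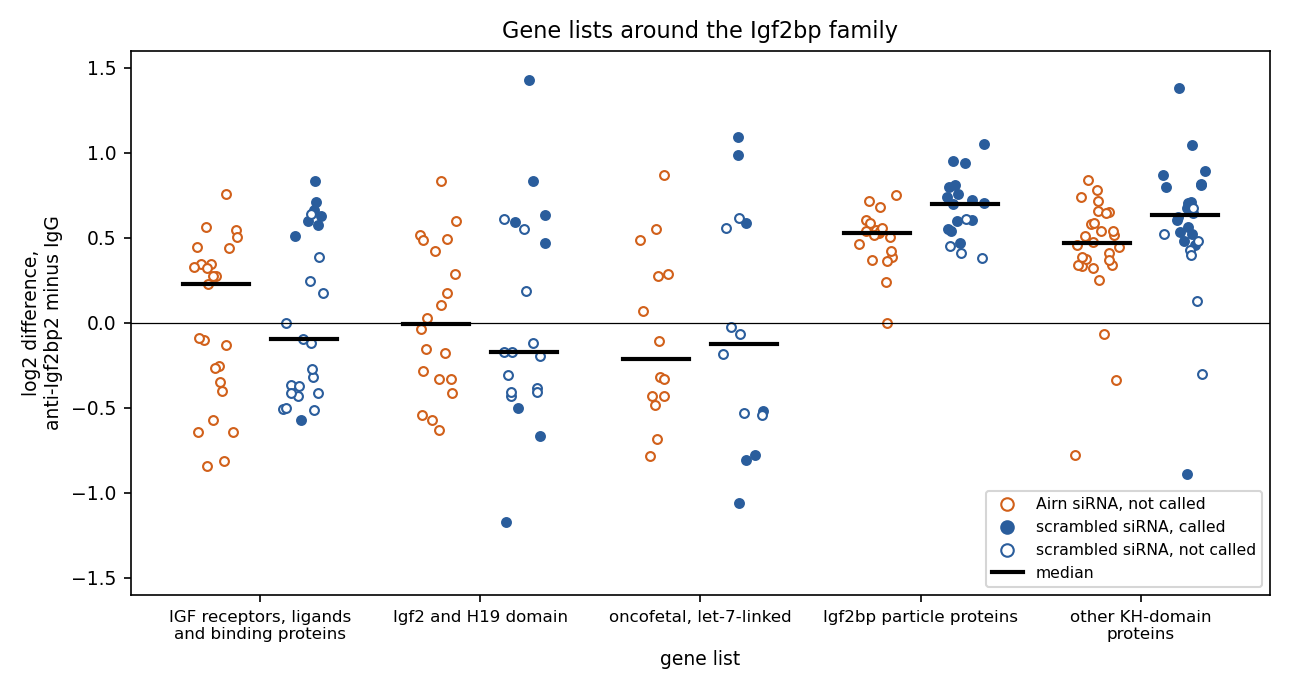
Log2 difference, anti-Igf2bp2 minus IgG (vertical axis) for each measured gene of 5 lists, with the Airn siRNA in orange on the left and the scrambled siRNA in blue on the right. Filled points were called in the authors' deposited table and bars are medians. Igf2bp particle proteins and KH-domain proteins have medians of 0.53 and 0.47 with the Airn siRNA and of 0.70 and 0.63 with the scrambled siRNA, and those of the other 3 lists lie between -0.21 and 0.23.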

How the data were processed

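HL-1 cells were transfected with siRNA and lysates precipitated with anti-Igf2bp2 or IgG; per the labels' protocols, the recovered RNA was labelled as biotinylated cRNA by the Affymetrix method. The authors deposited 1 table of group comparisons: per the file headers it gives the difference of anti-Igf2bp2 and IgG groups, taken here as log2 values, with its p-value and adjusted p-value, for each siRNA. Software, normalization, statistical model and genome build: not given in the sources used here. Benjamini-Hochberg adjustment of the deposited p-values came within 0.000225 of the adjusted ones where p was at least 0.001.

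The planned fit to single arrays was replaced, as foreseen, by the deposited p-values. With 16.13 degrees of freedom the difference and p of both comparisons gave the same standard error per row (median disagreement 0.0597% over 25986 rows), which was used for intervals, for the change and for the mean of both comparisons (t distribution, errors taken as independent, Benjamini-Hochberg over all rows). The recovery was tested on simulated arrays with limma 3.58.1. Signal levels and the spread between single arrays are not in the table; precision is limited by how many arrays there were. Whether biological replicates came from separate cultures is not stated, so p-values measure the spread between these samples.

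Named genes were all rows of the 6 genes; of each list, up to 4 called genes in each direction by size; and the 3 genes nearest to Igf2bp2, Igf2bp3 and H19. List genes were matched by symbol or unambiguous older symbol (RefSeq, GRCm38.p6). The genes and lists were chosen with earlier results of these data known. Sequences are from RefSeq. Alternatives covered the rows adjusted over, centring, thresholds, correlation between comparisons and degrees of freedom. Scripts used Python 3.11.15 and scipy 1.17.1.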

Additional observations from a re-analysis of the deposited data

How the results depend on the processing

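With the Airn siRNA, the count of called rows among the 9 was 0 when p-values were adjusted over rows with a single symbol, 0 when the comparison was centred on the median of those rows, and 2 at an adjusted p under 0.10, where H19 joined Igf2bp2. The counts for the scrambled siRNA (3 to 5), the mean of both comparisons (4 to 6) and the change (0) stayed within 1.5 times their reported values of 4, 5 and 0 under every alternative run. Leaving aside the choice of a further row, 271 single-row outcomes over all settings and comparisons kept their direction and side of the threshold. Of the others 5 gained a call, 4 lost one and none changed sign. Of the lost calls, that of Igf2 in the mean of both comparisons came from requiring at least 1.5-fold. Choosing the further row of a gene turned directions: for Igf2bp1 to -0.19 with the Airn siRNA, -0.31 with the scrambled siRNA, 0.12 for the change and -0.25 for the mean; for the uncalled change of Igf2 to -0.017, and for that of H19 to 0.14. The cause was not tested. Over all rows, calls with the Airn siRNA numbered 375, against 36 adjusted over single-symbol rows, 146 without the 6615 unnamed rows that precede the first named one, 1184 and 150 with the 2 centrings, and 5706 at an adjusted p under 0.10. The mean called 20682 rows, and 12868 with at least 1.5-fold. With an assumed correlation of 0.3 between the comparisons the mean called 16396 rows, and with one of -0.3 it called 24416. The change called 0 rows and, with an assumed correlation of 0.3, 2. No paired analysis was possible because the table holds comparisons and no value of a single array, so the replicate block and leaving out each replicate were not run.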

Other observations

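The markers of cell types were spread in the same comparisons. Of 10 atrial cardiomyocyte markers 9 had a row of their own. The authors' deposited table called 2 of these higher with the Airn siRNA, the atrial natriuretic peptide precursor Nppa (1.03) and the atrial myosin light chain Myl4 (0.78), and 6 with the scrambled one, led by cardiac actin Actc1 (0.84). Sarcolipin, Sln, stood there at -0.40 with the Airn siRNA and at -0.50 with the scrambled siRNA and was not called. Over all genes, 0.813% were called higher and 0.169% lower with the Airn siRNA. The shares with the scrambled siRNA were 25.5% higher and 17.2% lower. The medians of the cardiomyocyte markers were 0.58 and 0.63, in that order of siRNAs. Those of 5 fibroblast markers were -0.23 and -0.29, of 4 endothelial markers -0.39 and -0.48, of 3 leukocyte markers -0.50 and -0.64, and of 3 smooth muscle markers 0.64 and 0.85. By the authors' deposited table, none of these 4 lists had a call with the Airn siRNA, and calls with the scrambled siRNA went both ways in all but the endothelial list. Among fibroblast markers, Dcn was higher (0.89) and Pdgfra lower (-0.66) there. Among leukocyte markers, Cd68 was higher (0.50) and Ptprc (-0.64) and Lyz2 (-1.17) were lower per the authors' deposited table. Among smooth muscle markers, Cnn1 (1.06) and Acta2 (0.85) were higher and Myh11 lower (-0.54), and 2 endothelial markers, Emcn (-0.72) and Cdh5 (-0.60), were lower, per the authors' deposited table. The endothelial marker Kdr went the other way, at 0.586 after Airn siRNA and 0.535 after scrambled siRNA, and Pecam1 lay below 0. Neither gene was called in these comparisons. In the mean of both comparisons, the test on recovered SEs called 1 endothelial marker higher and 3 lower. These are differences between precipitates and not levels, so the presence of a cell type could not be examined, and their part in the members' values was not tested.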
